A study of Mus musculus with 6 samples.

Results

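The BCL2 family genes described here are 10 listed members of the mouse apoptosis machinery, found by gene symbol among the 24421 genes of a single expression table. They were Bcl2, Mcl1, Bcl2l1, Bax, Bak1, Bcl2l11, Bid, Bbc3, Bad and Pmaip1, and all 10 had a value in every library. The table held 6 SMART-seq libraries of polyadenylated RNA from regulatory T cells (Treg) of WT mice, cultured in vitro. The groups were 2 libraries of stimulated Treg given iBP, 2 of stimulated Treg without it and 2 of unstimulated Treg. Spleen and lymph nodes were the source tissues. The design text names iBP as an inhibitor of H2AK119ub1, the mono-ubiquitin mark that Polycomb repressive complex 1 places on histone H2A. The labels used here do not give the stimulus, its duration, the iBP dose or the age of the mice. No group had iBP without stimulation, so an effect of iBP on the response and an effect of iBP alone cannot be told apart. Treg from Kdm2b cKO mice, which the design text also names, were not analysed here.

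The BCL2 family sets the threshold of the mitochondrial pathway of apoptosis. The survival proteins BCL2, MCL1 and BCL-XL (gene Bcl2l1) bind and hold the pore-forming effectors BAX and BAK and the BH3-only death proteins. BH3-only proteins, among them BIM (gene Bcl2l11), PUMA (gene Bbc3) and NOXA (gene Pmaip1), relay stress or loss of growth factor signals to them. Once BAX or BAK opens the outer mitochondrial membrane, cytochrome c is released and caspases are activated. In Treg, MCL1 is known to be required for survival and BIM to limit it, and interleukin-2 signalling through STAT5 is known to sustain survival proteins.

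Promoter sequences are shown for the 3 survival genes because KDM2B, the subunit that recruits a variant form of Polycomb repressive complex 1, binds unmethylated CpG through its CXXC domain. Each window ran from 250 bases before to 50 bases after the RefSeq start on GRCm38.p6. The Bcl2 window was chr1:106714241-106714540 on the minus strand, the Mcl1 window chr3:95658471-95658770 on the plus strand and the Bcl2l1 window chr2:152831679-152831978 on the minus strand, the farthest upstream of 3 for that gene. They are written 5′ to 3′ with CpG in capitals.
Bcl2: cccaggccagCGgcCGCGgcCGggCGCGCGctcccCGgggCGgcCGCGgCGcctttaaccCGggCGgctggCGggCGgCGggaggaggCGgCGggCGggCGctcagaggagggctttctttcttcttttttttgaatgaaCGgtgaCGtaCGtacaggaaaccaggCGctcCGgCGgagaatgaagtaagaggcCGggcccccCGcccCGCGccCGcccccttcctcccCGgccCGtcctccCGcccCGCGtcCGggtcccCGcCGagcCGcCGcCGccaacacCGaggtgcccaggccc
Mcl1: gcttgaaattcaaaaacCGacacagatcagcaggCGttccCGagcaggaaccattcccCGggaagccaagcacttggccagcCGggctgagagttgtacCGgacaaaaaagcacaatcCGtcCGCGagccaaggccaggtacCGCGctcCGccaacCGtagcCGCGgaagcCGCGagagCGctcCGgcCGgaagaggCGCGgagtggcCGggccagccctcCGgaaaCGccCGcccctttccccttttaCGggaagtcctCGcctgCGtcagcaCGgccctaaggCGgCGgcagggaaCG
Bcl2l1: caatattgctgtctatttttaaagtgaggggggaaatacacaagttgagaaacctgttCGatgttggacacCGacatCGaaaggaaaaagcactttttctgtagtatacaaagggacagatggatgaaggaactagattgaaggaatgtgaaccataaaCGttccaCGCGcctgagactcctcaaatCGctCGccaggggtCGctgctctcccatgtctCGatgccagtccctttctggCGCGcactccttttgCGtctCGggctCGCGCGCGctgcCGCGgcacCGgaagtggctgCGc

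The Bcl2 window held 44 CpG, more than 97.8% of the 32851 windows of all genes, whose median was 7 with quartiles of 3 and 20. The Mcl1 window held 33 CpG, more than 91.4% of all windows. The 3 Bcl2l1 windows held 1, 14 and 22 CpG, and the one printed exceeded 76.9% of all windows. Of the 10 members, 9 had a window, 15 windows in all, and Pmaip1 had none. Among the death genes, Bbc3, which encodes PUMA, had 34, 30 and 39 CpG in its 3 windows, and Bak1, an effector gene, had 11 in its only one. The windows were searched on both strands for short motifs by their letters. The STAT motif TTCNNNGAA was in 0 of the 15 member windows and 8.30% of all windows, and the AP-1 motif TGANTCA was in 0 of 15 and 7.81%. A p53 motif was likewise in 0 of 15 and 0.712%. The FOXO motif GTAAACA was in windows of Bcl2l11 and Bbc3, 2 of 15, against 3.65% of all windows. An NF-kappaB motif was in windows of Bcl2l1, Mcl1 and Bbc3, 3 of 15, against 1.63%, and in Mcl1 it began 28 bases before the start. The E-box CACGTG was in windows of Bbc3 and Bax, 2 of 15, against 7.15%. No matches overlapped each other, and no binding was measured in these files.

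The summed FPKM was 366044 to 366722 in the iBP libraries, 375821 to 378906 in the stimulated libraries and 374088 to 381302 in the unstimulated libraries, and read depth is unknown. FPKM are fragments scaled to transcript length and library size, and levels of different genes are compared below on that scale. Differences between genes from oligo-dT priming, amplification or shared reads were not tested. On the first principal component of all tested genes, unstimulated replicate 1 scored 37.9 and unstimulated replicate 2 scored 9.32, while the other 4 libraries lay between -13.3 and -10.5. Unstimulated replicate 1 also had the fewest genes above 0, 12596 against 13293 to 13592 in the other 5 libraries. It had the highest sum of erythroid and platelet markers. That sum was 51.6 to 159.9 FPKM with iBP, 50.1 to 58.9 FPKM in stimulated libraries and 49.0 to 223 FPKM in unstimulated libraries. Most of it in unstimulated replicate 1 was the globin gene Hba-a1, at 179 FPKM. Hba-a1 was at 0.843 FPKM in unstimulated replicate 2, 9.29 and 123 FPKM with iBP and 1.46 and 0 FPKM in stimulated libraries. The other globin gene listed, Hbb-bs, was at 28.1 FPKM in unstimulated replicate 1 and 24.0 to 40.2 FPKM over all libraries. The labelled cell type was checked with 8 Treg and T cell markers, all present, whose summed FPKM was 1028 to 1033 in the iBP libraries, 988 to 1012 in the stimulated libraries and 785 to 792 in the unstimulated libraries. The lineage factor Foxp3 was at 122 and 124 FPKM with iBP, 121 and 101 FPKM in stimulated libraries and 35.5 and 47.1 FPKM in unstimulated libraries. Of the 8, 2 passed the test in stimulated against unstimulated Treg and 3 with iBP against unstimulated Treg. Ratios of stimulated to unstimulated means were 2.69 for Foxp3, 1.90 for Il2ra and 1.34 for Ctla4. For Cd3e, Cd3d, Cd3g, Cd4 and Ikzf2 they were 1.09, 1.01, 0.952, 0.873 and 0.868. All 8 B cell markers were present as well, with summed FPKM of 746 to 780 in the iBP libraries, 843 to 882 in the stimulated libraries and 833 to 852 in the unstimulated libraries, and 0 of the 8 passed the test in either comparison with unstimulated Treg. Levels differed widely within each list. Over the 6 libraries the B cell receptor components Cd79a and Cd79b were at 234 to 291 and 222 to 340 FPKM, and the B cell gene Pax5 at 1.57 to 3.38 FPKM. The T cell receptor components Cd3e, Cd3g and Cd3d were at 57.6 to 83.3, 90.5 to 108 and 116 to 151 FPKM. Pancreatic acinar markers, 6 of 6 present, summed to 33.3 to 56.3 FPKM with iBP, 42.1 to 132 FPKM in stimulated libraries and 27.1 to 38.4 FPKM in unstimulated libraries. Plasma cell markers summed to 39.8 to 56.1 FPKM with iBP, 28.8 to 36.3 FPKM in stimulated libraries and 48.1 to 49.0 FPKM in unstimulated libraries, and 1 of the 4 was at 0 in at least 1 library. Stromal and endothelial markers, of which 3 of 4 were at 0 in at least 1 library, summed to 18.4 to 21.2 FPKM with iBP, 14.4 to 15.5 FPKM in stimulated libraries and 24.8 to 26.8 FPKM in unstimulated libraries. Nearly all of that was Pecam1, at 14.4 to 26.8 FPKM. Pdgfra was at 0 in every library, and Col1a1 and Cdh5 reached at most 0.0105 and 0.0218 FPKM. Of 7 myeloid markers, 5 were at 0 in at least 1 library. The 7 summed to 66.9 to 100.3 FPKM with iBP, 83.5 to 85.5 FPKM in stimulated libraries and 66.8 to 84.0 FPKM in unstimulated libraries. Most of that sum was Lyz2, at 65.5 to 99.5 FPKM over the 6 libraries. The part of these other cell types in the results below was not tested.

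Stimulated Treg carried more transcript of the survival genes Bcl2 and Mcl1 than unstimulated Treg, while the third listed survival gene, Bcl2l1, did not pass the test. In this comparison 2 of the 10 members were higher at an adjusted p under 0.05 and 0 were lower, against 0.968% of all 10436 tested genes called higher, 0.326% called lower and 1.29% called in either direction. Differences are given on the log2(FPKM + 1) scale from limma, with Benjamini-Hochberg adjustment over all tested genes. In bulk libraries, fewer cells of a type and less RNA per cell cannot be told apart.

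Bcl2, the founding survival gene of the family, lies on chromosome 1 at chr1:106538178-106714274 (GRCm38, GENCODE M21, minus strand, protein coding). Of its exonic bases, 6.09% are shared with D630008O14Rik on the opposite strand, and the counting strand is not stated. It was at 46.1 and 55.8 FPKM in stimulated Treg with iBP, at 39.5 and 45.3 FPKM in stimulated Treg and at 13.6 and 12.9 FPKM in unstimulated Treg. All 4 stimulated libraries lay above both unstimulated ones. Bcl2 averaged 51.0 ± 6.88 FPKM with iBP, 42.4 ± 4.11 FPKM in stimulated Treg and 13.2 ± 0.486 FPKM in unstimulated Treg (SD, n = 2 each), and the stimulated mean was 3.20 times the unstimulated one. Bcl2 rose in stimulated against unstimulated Treg by 1.61 ± 0.17 (SE, limma adjusted p = 0.000668), with a 95% interval of 1.24 to 1.97 before adjustment. With no filter on low values its limma adjusted p was 0.0545, and with no variance trend it was 0.0523.

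Mcl1 encodes a short-lived survival protein that binds NOXA and BIM, and it lies at chr3:95658788-95663176 on the plus strand. It was at 36.7 and 37.5 FPKM in stimulated Treg with iBP, at 40.8 and 43.5 FPKM in stimulated Treg and at 19.2 and 24.7 FPKM in unstimulated Treg. Again the 4 stimulated libraries lay above both unstimulated ones. The mean of stimulated Treg without iBP was 1.92 times the unstimulated mean. Mcl1 rose in stimulated against unstimulated Treg by 0.92 ± 0.17 (SE, limma adjusted p = 0.0192). Leaving out stimulated replicate 1, stimulated replicate 2 or unstimulated replicate 1 gave limma adjusted p of 0.0794, 0.175 and 0.106 for Mcl1, and fitting only the compared groups gave 0.0534. The Mcl1 adjusted p was 0.151 with no filter and 0.202 with no variance trend.

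Bcl2l1, whose main product is the survival protein BCL-XL, lies at chr2:152780668-152831728 on the minus strand. It was at 78.6 and 71.7 FPKM with iBP, at 64.5 and 75.3 FPKM in stimulated Treg and at 66.5 and 75.4 FPKM in unstimulated Treg. The 3 groups overlapped. The difference of stimulated from unstimulated Treg was -0.02, with a 95% interval of -0.33 to 0.28 (limma adjusted p = 0.982). FPKM per gene do not separate its long survival isoform from its short death-promoting one.

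**Figure D1:**
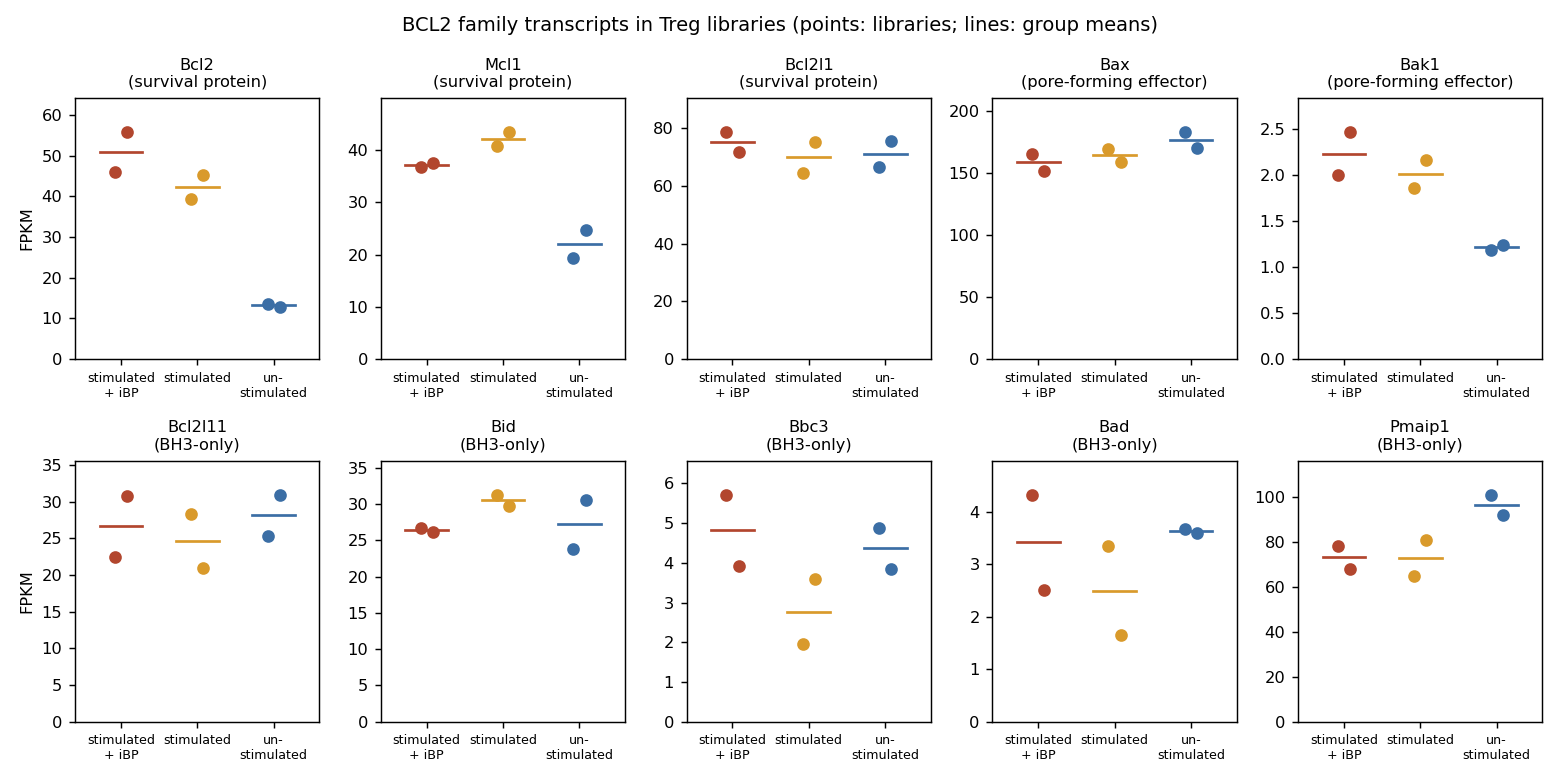
FPKM of the 10 BCL2 family genes by library (points) and group mean (lines), with groups from left to right stimulated with iBP, stimulated and unstimulated, and each panel on its own axis from 0. Bcl2 and Mcl1 libraries of both stimulated groups lie above the unstimulated ones, with Bcl2 at 39.5 to 55.8 FPKM against 12.9 and 13.6 FPKM.

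Among the listed genes, the effectors were at opposite ends. Bax, which forms the mitochondrial pore, was the most abundant member in every group. Its level was 166 and 152 FPKM with iBP, 169.7 and 159 FPKM in stimulated Treg and 183 and 170.4 FPKM in unstimulated Treg. Stimulated libraries lay below the unstimulated ones, but the difference was -0.10 with a 95% interval of -0.36 to 0.15 (limma adjusted p = 0.838). Bax lies at chr7:45461697-45466898 on the minus strand, and 12.2% of its exonic bases are shared with Gm45808 on the same strand.

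Bak1, the gene of the other effector BAK, was the least abundant member in every group. It was at 1.99 and 2.47 FPKM with iBP, at 1.86 and 2.16 FPKM in stimulated Treg and at 1.19 and 1.24 FPKM in unstimulated Treg. Its stimulated libraries lay above the unstimulated ones, a ratio of means of 1.66, yet it did not pass the test (difference 0.44, 95% interval -0.27 to 1.16, limma adjusted p = 0.701). The scale understates changes of low genes such as this one. Bak1 lies at chr17:27019810-27029009 on the minus strand, and 25.5% of its exonic bases are shared with Ggnbp1 on the opposite strand, which was at 0 to 0.614 FPKM.

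Of the 5 BH3-only genes, 0 passed the test in stimulated against unstimulated Treg. Pmaip1, which encodes NOXA, the partner that promotes loss of MCL1, was the most abundant of them and lies on chromosome 18. It was at 78.3 and 68.1 FPKM with iBP, at 64.8 and 80.8 FPKM in stimulated Treg and at 101 and 91.7 FPKM in unstimulated Treg. All 4 stimulated libraries lay below both unstimulated ones. The difference of stimulated from unstimulated was -0.41 with a 95% interval of -0.73 to -0.08, and it missed the threshold after adjustment (limma adjusted p = 0.310).

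Bcl2l11, which encodes BIM and lies at chr2:128126038-128162547, was at 22.5 and 30.8 FPKM with iBP, at 28.3 and 20.9 FPKM in stimulated Treg and at 25.3 and 31.0 FPKM in unstimulated Treg. Its groups overlapped, and the difference of stimulated from unstimulated was -0.19 with a 95% interval of -0.65 to 0.26. Bid, the protein that caspase-8 cleaves to link death receptors to mitochondria, is encoded at chr6:120891930-120916853 on the minus strand. It was at 26.7 and 26.2 FPKM with iBP, at 31.3 and 29.8 FPKM in stimulated Treg and at 23.9 and 30.6 FPKM in unstimulated Treg, with a difference of 0.17 (95% interval -0.20 to 0.54) between stimulated and unstimulated groups that overlapped. Of the exonic bases of Bid, 17.7% are shared with Bcl2l13 on the opposite strand, which was at 5.87 to 11.7 FPKM.

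The remaining BH3-only genes were low. Bbc3, a p53 target gene encoding PUMA at chr7:16308393-16318205, was at 5.72 and 3.92 FPKM with iBP, at 1.95 and 3.59 FPKM in stimulated Treg and at 4.89 and 3.85 FPKM in unstimulated Treg. Bad, whose protein is held inactive by phosphorylation downstream of growth factor signals, lies at chr19:6941861-6951899 and was at 4.33 and 2.51 FPKM with iBP, at 3.34 and 1.66 FPKM in stimulated Treg and at 3.67 and 3.60 FPKM in unstimulated Treg. For both genes the stimulated libraries without iBP lay below the unstimulated ones, though neither passed the test. The differences were -0.54 (95% interval -1.25 to 0.17) for Bbc3 and -0.45 (95% interval -1.21 to 0.31) for Bad. Of the exonic bases of Bad, 20.5% are shared with Gpr137 on the opposite strand, which was at 0.290 to 0.617 FPKM.

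Counted by overlap alone, 3 members had both stimulated libraries above both unstimulated ones (Bcl2, Mcl1 and Bak1), 4 had them below (Bax, Bbc3, Bad and Pmaip1) and 3 overlapped. Among all tested genes 18.7% lay above and 19.1% below, 37.8% in all. The median difference was -0.06 over the 10 members and -0.00 over all tested genes, so the 2 genes that rose stood beside 8 others that were on both sides of 0.

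Adding iBP to stimulated Treg gave no member past the test. At an adjusted p under 0.05, 0 of 10 members were called, against 0.00958% of all tested genes (1 gene), and at an unadjusted limma p under 0.05 the counts were 0 members and 498 genes. Bcl2 differed from the stimulated level by 0.26 with a 95% interval of -0.11 to 0.62, and its 2 iBP libraries lay above the 2 stimulated ones. Mcl1 had its iBP libraries below the stimulated ones, with a difference of -0.18 (95% interval -0.54 to 0.18). The interval for Bcl2l1 was -0.20 to 0.41 and that for Bax -0.31 to 0.20. Missing the threshold does not show that iBP left these genes unaltered.

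Bbc3 had the largest difference of the members between stimulated Treg with and without iBP, 0.64 with a 95% interval of -0.07 to 1.36 (limma adjusted p = 0.998). Its iBP libraries at 5.72 and 3.92 FPKM lay above the stimulated ones at 1.95 and 3.59 FPKM. Bad differed by 0.35 (95% interval -0.42 to 1.11), Bid by -0.20 (-0.57 to 0.17), Bcl2l11 by 0.11 (-0.35 to 0.57), Bak1 by 0.10 (-0.61 to 0.81) and Pmaip1 by 0.01 (-0.31 to 0.33). Libraries did not overlap for 2 members that were higher with iBP (Bcl2 and Bbc3) and 2 that were lower (Mcl1 and Bid), against 13.6% of all tested genes higher and 21.0% lower, 34.6% in all. The median was 0.10 over members and -0.03 over all tested genes.

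**Figure D2:**
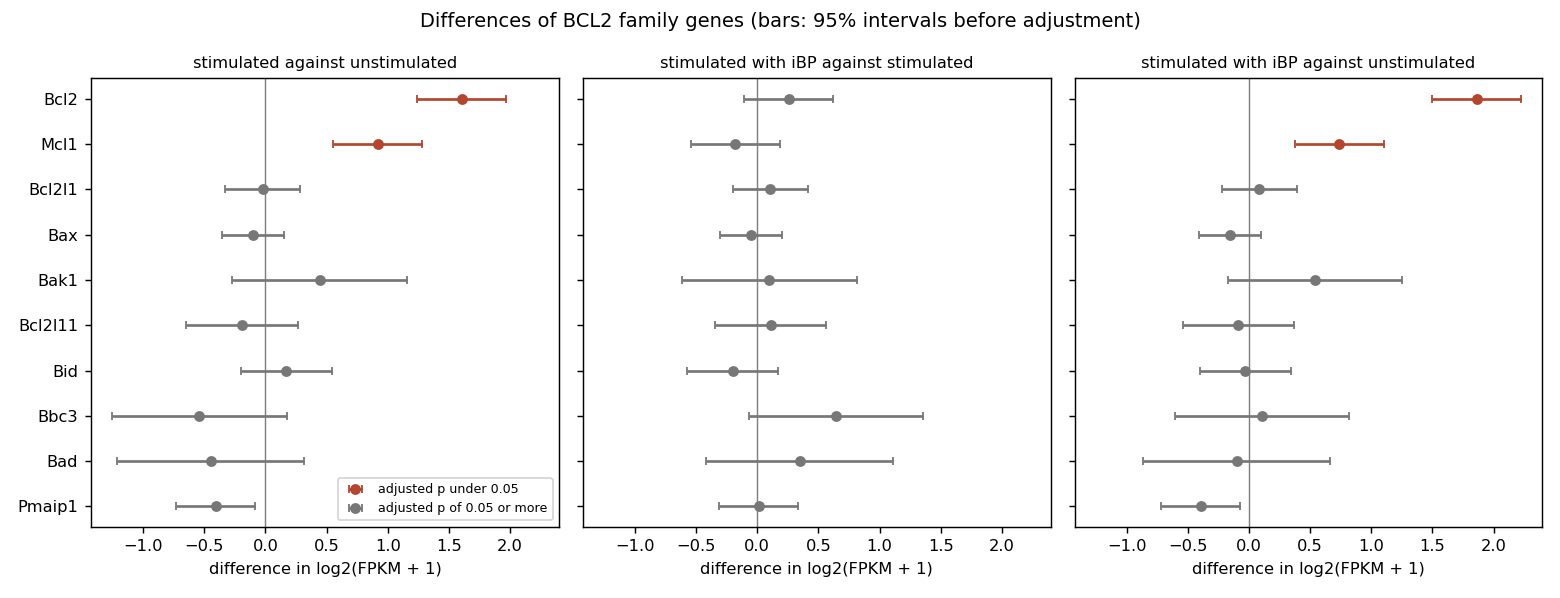
Differences in log2(FPKM + 1) of the 10 genes for stimulated against unstimulated, stimulated with iBP against stimulated, and stimulated with iBP against unstimulated Treg; points are limma estimates, bars 95% intervals before adjustment and red marks an adjusted p under 0.05. Bcl2 and Mcl1 are red in both comparisons with unstimulated Treg, and no gene is red between the stimulated groups.

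Stimulated Treg with iBP were also set against unstimulated Treg, which shares its unstimulated libraries with the first comparison. Bcl2 and Mcl1 were again the members that rose, 2 of 10, with 0 lower, against 1.03% of all tested genes called higher, 0.728% called lower and 1.75% in either direction. Bcl2 rose by 1.86 ± 0.17 (SE, limma adjusted p = 0.000193), a ratio of means of 3.85. Mcl1 rose by 0.74 ± 0.17 (limma adjusted p = 0.0487), a ratio of 1.69. Pmaip1 differed by -0.39 (95% interval -0.72 to -0.07, adjusted p = 0.280), and the effector gene Bak1 by 0.54 (-0.17 to 1.25, adjusted p = 0.560). Libraries did not overlap for 3 members that were higher (Bcl2, Mcl1 and Bak1) and 2 that were lower (Bax and Pmaip1), against 18.1% and 23.9% of all tested genes, 42.0% in all. The Mcl1 call was kept under 6 of 16 alternatives. Leaving out iBP replicate 1 or 2 gave Mcl1 an adjusted p of 0.257 and 0.286, leaving out stimulated replicate 1 or 2 gave 0.0698 and 0.0717, and leaving out unstimulated replicate 1 gave 0.221. The Mcl1 adjusted p was 0.0588 with a pseudocount of 0.1, 0.200 with no filter, 0.249 with no variance trend and 0.0781 when only the compared groups were fitted.

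With the 2 stimulated groups averaged against unstimulated Treg, Bcl2 rose by 1.73 ± 0.14 (limma adjusted p = 7.12e-05) and Mcl1 by 0.83 ± 0.14 (adjusted p = 0.00945). The 2 members called higher stand beside 1.51% of all tested genes, with 0.92% called lower and 2.43% in either direction. The same count of members did not overlap, 3 higher and 2 lower, against 9.98% and 11.7% of all tested genes, 21.7% in all. The mean over 4 stimulated libraries was 46.7 ± 6.79 FPKM for Bcl2 and 39.6 ± 3.13 FPKM for Mcl1 (SD). Without unstimulated replicate 1 the Mcl1 adjusted p was 0.0911, with no filter it was 0.105 and with no variance trend 0.138. Pmaip1 differed by -0.40 (95% interval -0.68 to -0.12, adjusted p = 0.169).

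Ranked by mean FPKM, Bax was first and Bak1 last in every group. In stimulated Treg with iBP the order was Bax, Bcl2l1, Pmaip1, Bcl2, Mcl1, Bcl2l11, Bid, Bbc3, Bad and Bak1, with overlapping libraries between Bcl2l1 and Pmaip1, between Bcl2l11 and Bid, and between Bbc3 and Bad. In stimulated Treg it was Bax, Pmaip1, Bcl2l1, Bcl2, Mcl1, Bid, Bcl2l11, Bbc3, Bad and Bak1, with overlaps between Pmaip1 and Bcl2l1, between Bcl2 and Mcl1, between Bbc3 and Bad, and between Bad and Bak1. In unstimulated Treg it was Bax, Pmaip1, Bcl2l1, Bcl2l11, Bid, Mcl1, Bcl2, Bbc3, Bad and Bak1, with overlaps from Bcl2l11 to Bid and from Bid to Mcl1. Bcl2 ranked 4, 4 and 7 of the 10 in those groups, above 87.4%, 84.3% and 61.2% of all tested genes.

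Summed by role, the listed survival genes were a larger share of the 10 genes in the stimulated libraries. The sum of Bcl2, Mcl1 and Bcl2l1 was 161 and 165 FPKM in stimulated Treg with iBP, 145 and 164 FPKM in stimulated Treg and 99.4 and 113 FPKM in unstimulated Treg. That was 34.6% and 36.6% of the summed FPKM of the 10 genes with iBP, 32.5% and 35.5% in stimulated Treg and 22.5% and 25.4% in unstimulated Treg. The sum of all 10 genes was 467 and 451 FPKM with iBP, 446 and 462 FPKM in stimulated Treg and 442 and 445 FPKM in unstimulated Treg. The 5 BH3-only genes summed to 138 and 131 FPKM with iBP, 129.7 and 137 FPKM in stimulated Treg and 159 and 161 FPKM in unstimulated Treg. These sums are descriptions and carry no test, and transcript shares do not give protein shares. The shares also depend on the list. The survival genes Bcl2a1a, Bcl2a1b and Bcl2a1d are outside the 10 and were left out. They were at 18.6 to 23.6, 150 to 205 and 61.5 to 93.6 FPKM over the 6 libraries, and none passed the test in stimulated against unstimulated Treg.

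Among the listed survival genes Bcl2, Mcl1 and Bcl2l1, Bcl2 held a larger share in the stimulated libraries. Bcl2 supplied 28.6% and 33.8% of the survival sum with iBP, 27.3% and 27.6% in stimulated Treg and 13.7% and 11.4% in unstimulated Treg. The Bcl2l1 to Bcl2 ratio was 1.71 and 1.28 with iBP, 1.63 and 1.66 in stimulated Treg and 4.90 and 5.85 in unstimulated Treg. The Bcl2 to Bcl2l11 ratio was 2.05 and 1.81 with iBP, 1.39 and 2.16 in stimulated Treg and 0.536 and 0.416 in unstimulated Treg, so the FPKM of Bcl2l11 exceeded that of Bcl2 in both unstimulated libraries and in 0 of the 4 stimulated ones. The Mcl1 to Pmaip1 ratio was 0.469 and 0.551 with iBP, 0.630 and 0.538 in stimulated Treg and 0.191 and 0.270 in unstimulated Treg.

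**Figure D3:**
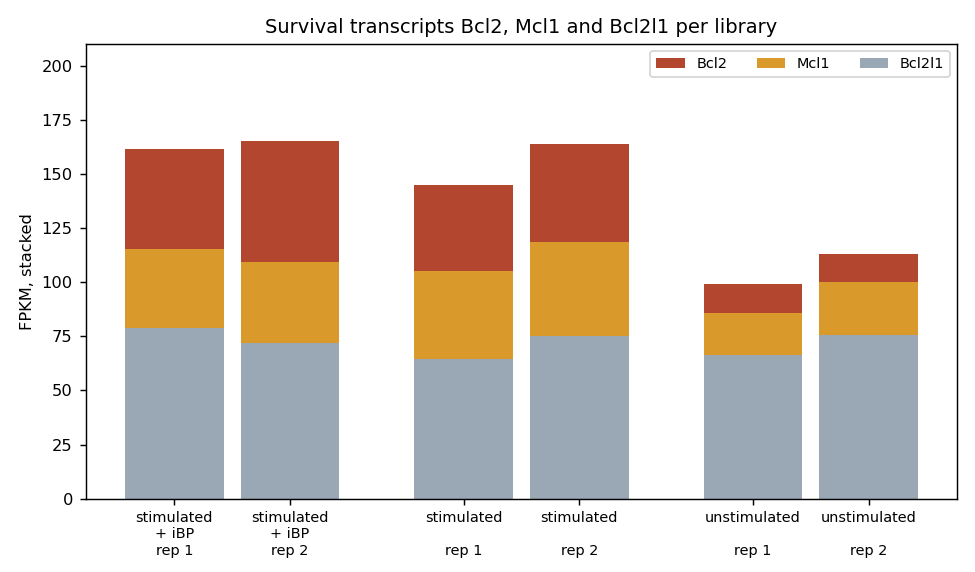
Stacked FPKM of Bcl2, Mcl1 and Bcl2l1 in each of the 6 libraries, with groups from left to right stimulated with iBP, stimulated and unstimulated. The totals are 145 to 165 FPKM in the 4 stimulated libraries and 99.4 and 113 FPKM in the unstimulated ones, with a Bcl2l1 layer of 64.5 to 78.6 FPKM.

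Genes nearest to Bcl2 and Mcl1 were sought by the root mean square difference of log2(FPKM + 1) over the 6 libraries after removing each gene's mean. Nearest to Bcl2 were Myo6 (0.102), Xxylt1 (0.142), Ecm1 (0.159), Cish (0.164) and Kpna1 (0.172), where the median over all tested genes was 0.872. Nearest to Mcl1 were Dhx34 (0.0625), Vprbp (0.0702), Pik3r4 (0.0722), Irf4 (0.0737) and St14 (0.0821), where the median was 0.472. These genes were picked from the same libraries, so their higher stimulated values follow from the choice. Some were low: Myo6 was at 0.176 to 3.15 FPKM, Dhx34 at 1.06 to 3.27 FPKM and St14 at 0 to 1.23 FPKM. Cish, an inhibitor of STAT5 signalling, was at 169 and 188 FPKM with iBP, 170.1 and 186 FPKM in stimulated Treg and 43.9 and 54.7 FPKM in unstimulated Treg. Irf4, a transcription factor of activated Treg, was at 110.3 and 102 FPKM with iBP, 113 and 119 FPKM in stimulated Treg and 61.3 and 70.6 FPKM in unstimulated Treg.

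Genes around the family were taken from 5 lists. Over all 10436 tested genes, 1129 had an unadjusted limma p under 0.05 in stimulated against unstimulated Treg. In stimulated against unstimulated Treg, 0 of 13 tested genes among 19 other BCL2 family genes passed, with 1 at an unadjusted limma p under 0.05 and a median difference of 0.04. That gene was Bnip3l, a mitophagy receptor, with a difference of -0.36 (adjusted p = 0.345), and the next was Bcl2l12 with 0.54 (adjusted p = 0.579). Bcl2a1b, a survival gene with near-identical copies whose reads may be split, was chosen after its values were seen. It was at 173 and 150.2 FPKM with iBP, 205 and 169.6 FPKM in stimulated Treg and 192 and 171 FPKM in unstimulated Treg. The death gene Hrk was listed at 0 in every library.

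Downstream of the mitochondria, 0 of 19 tested genes of the apoptosome, caspases and their inhibitors passed. Their median was -0.07, and 1 was at an unadjusted limma p under 0.05, against 1129 of all 10436 tested genes. Birc2, which encodes the ubiquitin ligase cIAP1, differed by -0.39 (adjusted p = 0.420), and Casp9, the initiator caspase of the apoptosome, by -0.75 (adjusted p = 0.504). Casp9 was low, at 0.422 to 2.36 FPKM over the 6 libraries. Of 15 tested p53 target genes 0 passed, with 1 at an unadjusted p under 0.05 and a median of -0.01, Sesn1 differing by -0.52 (adjusted p = 0.174) and Btg2 by -0.23 (adjusted p = 0.506).

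The death receptor pathway upstream of Bid had 1 of 10 tested genes higher and 0 lower in stimulated against unstimulated Treg, with a median of 0.12. Among all tested genes 0.968% were called higher and 0.326% lower. At an unadjusted limma p under 0.05 there were 3 of the 10, against 1129 of all 10436 tested genes. Fas, the death receptor that FasL engages, was at 70.2 and 63.6 FPKM with iBP, 71.4 and 73.8 FPKM in stimulated Treg and 39.2 and 32.2 FPKM in unstimulated Treg. Fas rose in stimulated against unstimulated Treg by 1.01 (limma adjusted p = 0.00476), with iBP against unstimulated Treg by 0.89 (adjusted p = 0.00903) and with both stimulated groups averaged by 0.95. In these 3 comparisons the adjusted p of Fas was 0.133, 0.123 and 0.0722 with no filter and 0.154, 0.181 and 0.101 with no variance trend. Without stimulated replicate 2 the limma adjusted p of Fas in stimulated against unstimulated Treg was 0.0547. Casp8, which encodes the caspase that cleaves BID, was at 167 and 168 FPKM with iBP, 157 and 179.6 FPKM in stimulated Treg and 114 and 118 FPKM in unstimulated Treg. It rose with iBP against unstimulated Treg by 0.53 (limma adjusted p = 0.0483) and with both stimulated groups averaged by 0.53 (adjusted p = 0.0175), and in stimulated against unstimulated Treg the adjusted p was 0.0526. Fasl, the ligand gene, rose by 0.85 (adjusted p = 0.0492) with both stimulated groups averaged. Several of these calls were lost when 1 library was left out. Leaving out iBP replicate 1 or 2 gave Fas adjusted p of 0.129 and 0.0624 with iBP against unstimulated Treg and gave Casp8 0.301 and 0.302, while leaving out unstimulated replicate 1 or 2 gave Casp8 0.169 and 0.0795. With both stimulated groups averaged, Casp8 had adjusted p of 0.0768 and 0.0757 without iBP replicate 1 or 2 and 0.111 and 0.0525 without unstimulated replicate 1 or 2. Fasl had 0.157 without iBP replicate 2, 0.0920 and 0.145 without stimulated replicate 1 or 2, and 0.0576 and 0.192 without unstimulated replicate 1 or 2. Casp8 had adjusted p of 0.183 with no filter, 0.345 with no variance trend and 0.0565 with a pseudocount of 0.1 in iBP against unstimulated Treg, and 0.108 with no filter and 0.241 with no variance trend when both stimulated groups were averaged. Fasl had 0.307 with no filter, 0.224 with no variance trend, 0.0607 with a pseudocount of 0.1 and 0.0517 with median-of-ratios scaling.

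Among 25 tested regulators of the family, 1 was higher and 0 lower in stimulated against unstimulated Treg, with a median of -0.00. The shares of all tested genes were 0.968% higher and 0.326% lower. At an unadjusted limma p under 0.05 there were 3 of the 25, against 1129 of all 10436 tested genes. Myc, the gene of a growth-promoting transcription factor known to sensitise cells to apoptosis, was at 437 and 423 FPKM with iBP, 389 and 459 FPKM in stimulated Treg and 206 and 231 FPKM in unstimulated Treg. It rose in stimulated against unstimulated Treg by 0.95 (limma adjusted p = 0.00170), but its adjusted p was 0.133 with no filter and 0.171 with no variance trend. In iBP against unstimulated Treg and with both stimulated groups averaged, Myc was again the regulator that rose, by 0.97 and 0.96. Its adjusted p was 0.112 and 0.0713 with no filter and 0.156 and 0.0930 with no variance trend. In both comparisons 0 genes of the other BCL2 family, apoptosome and p53 lists passed. Of their 13, 19 and 15 tested genes, 4, 2 and 2 had an unadjusted limma p under 0.05 in the first comparison. The share over all tested genes was 1278 of 10436. In the second comparison the counts were 2, 1 and 2, against 1391 of all tested genes. With iBP against unstimulated Treg the genes of these lists with the smallest p included Moap1 (1.47) and Bnip3l (-0.43), Birc2 (-0.38), and Sesn1 (-0.40) and Gtse1 (-0.60). Averaging both stimulated groups gave Bnip3l -0.39 and Moap1 1.12, Birc2 -0.38, and Sesn1 -0.46 and Gtse1 -0.47. Moap1 was low, at 2.78 and 1.31 FPKM with iBP, 0.210 and 1.71 FPKM in stimulated Treg and 0 and 0.134 FPKM in unstimulated Treg. It met the filter only through stimulated libraries, so its differences follow in part from how it entered the test.

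Between stimulated Treg with and without iBP, 0 genes of the 5 lists passed. Unadjusted limma p was under 0.05 for 2 other BCL2 family genes, 1 apoptosome gene and 1 p53 target gene, against 498 of all 10436 tested genes. Bcl2l12 differed by -0.83, Bcl2a1d by -0.33, Casp9 by 1.01 and Ei24 by -0.87, all with an adjusted p of 0.998. Of these, Casp9 and Ei24 were low. Casp9 was at 2.36 and 2.04 FPKM with iBP and 0.422 and 0.781 FPKM in stimulated Treg. Ei24 was at 1.35 and 2.09 FPKM with iBP and 4.15 and 3.69 FPKM in stimulated Treg. Dffa, which encodes the caspase-activated DNase inhibitor, differed by -0.57 and Aen by -0.47. Tnfrsf10b, a death receptor gene, differed by 0.56, the caspase-8 inhibitor gene Cflar by -0.31, Ddit3 by 0.28 and Stat5b by 0.25, none of which passed.

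**Figure D4:**
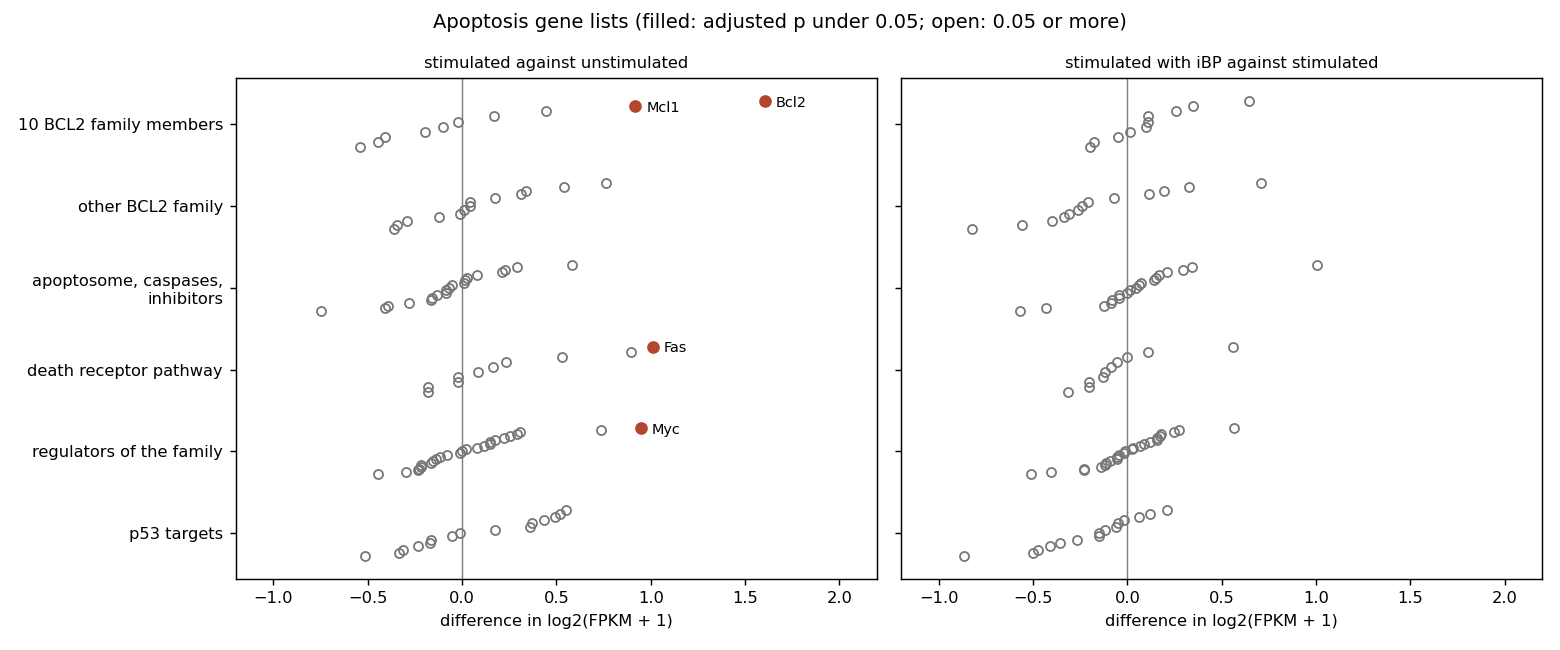
Differences in log2(FPKM + 1) for the tested genes of the 10 members and 5 further lists, for stimulated against unstimulated (left) and stimulated with iBP against stimulated Treg (right), 1 point per gene; filled points have an adjusted p under 0.05. On the left Bcl2, Mcl1, Fas and Myc are filled, and on the right none is.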

How the data were processed

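In all, 6 libraries, 2 in each of 3 groups, were compared. The authors deposited FPKM values per gene in a single table; per the submitters' processing notes reads were aligned with HISAT2 2.2.1 to mm10 and quantified with StringTie 2.1.1. Per the labels' protocols, reverse transcription used an oligo-dT primer and SMARTer PCR amplification followed. No annotation, counting strand or handling of multi-mapped reads is given in the sources used here, and overlapping genes may share reads. Low values shared no common step, so reads were not recovered and depth is unknown. PCR copies were not separated.

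FPKM were tested as log2(FPKM + 1) where 2 or more libraries reached an FPKM of 1, which kept 10436 of 24421 genes, all 10 members included. The 6 libraries entered 1 limma model of the 3 groups (limma 3.58.1, R 4.3.3) with a variance trend, 3 residual and 8.52 prior degrees of freedom. Two-sided p-values were Benjamini-Hochberg adjusted over all tested genes. The fit was run on simulated normal data whose spread followed a smooth trend with mean level. Such data cannot show how far the calls here depend on the variance trend. The 4 comparisons share libraries. Separate animals are not stated in the labels for the 2 libraries of a group, and the p-values therefore reflect spread between samples that may be technical. An exact permutation test of 2 against 2 cannot go below p = 0.333.

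The members and lists were chosen with earlier results of these data known. All members are named; from each list, genes that passed (up to 6) or otherwise the 2 with the smallest unadjusted p are named, plus the 5 genes nearest in pattern to each member that passed. A gene that comes under this rule is not reported here. Alternatives changed the pseudocount, filter, scaling, variance model, samples and replicate block. Coordinates are from GENCODE M21 (GRCm38), matched by symbol, and promoters from RefSeq. Python 3.11.15, pandas 2.3.3, numpy 2.4.6 and matplotlib 3.10.9 were used.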

Additional observations from a re-analysis of the deposited data

How the results depend on the processing

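No difference that passed the test reversed, though some that did not pass changed sign between alternatives: Bcl2l1 in stimulated against unstimulated Treg ran from -0.13 to 0.09, and Bid with iBP against unstimulated Treg from -0.20 to 0.14. Members called numbered 2 in stimulated against unstimulated Treg, but 0 with no filter, 0 with no variance trend, 1 with only the compared groups fitted and 1 to 2 leaving out a library; 2 with iBP against unstimulated, but 1 with pseudocount 0.1, no filter, no variance trend, only the compared groups or the replicate block, and 1 to 2 leaving out a library; and 2 with both stimulated groups averaged, but 1 with no filter or no variance trend, and 1 to 2 leaving out a library. Between the stimulated groups the count was 0 in every alternative. Over all genes, stimulated against unstimulated gave 135 calls, 12 with no filter, 12 with no variance trend, 77 with only the compared groups, 79 with the replicate block and 54 to 141 leaving out a library. With iBP against unstimulated the calls were 183, 11 with no filter, 9 with no variance trend, 109 with the block and 53 to 190 leaving out a library. Both stimulated groups averaged gave 254, 20 with no filter, 32 with no variance trend and 116 to 224 leaving out a library. With iBP against stimulated the calls were 1, 0 with no filter, 0 with no variance trend and 0 to 5 leaving out a library. A group left with 1 library was assumed to vary like the others. The causes were not tested. Equal replicate numbers did not deviate together (correlations -0.0118, -0.0185 and -0.0462), and with the replicate block Mcl1 and Casp8 in iBP against unstimulated had adjusted p of 0.0894 and 0.112, and Fasl with both stimulated groups averaged had 0.105. A minimum FPKM of 5 left Bak1, Bbc3 and Bad untested.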
